A study of Homo sapiens with 6 samples.

Results

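SNAI1, SNAI2, ZEB1, ZEB2, TWIST1 and TWIST2 are the transcription factors best known for driving epithelial-mesenchymal transition (EMT) and for marking the phenotype switch of melanoma. These 6 genes, and the gene lists used below, were chosen with earlier results of these data known. All 6 were matched by symbol among the 60617 gene identifiers of each count file. Of them 5 passed the low-count filter, as did 20423 genes in all. The 6 sequenced tumors were xenografts of the human melanoma cell line WM983-B, so the tumor cells were human and vessels, stroma and immune cells came from the host. Of the 6 tumors, 3 came from hosts given anle138b systemically, a small molecule developed against aggregating proteins such as α-synuclein, and 3 came from hosts given no treatment; the series title sets the study around aggregated α-synuclein in advanced melanoma. The labels give no host strain, dose, duration or vehicle, and do not say whether each tumor came from a separate animal, so a p-value here speaks only to the spread among the 6 libraries, which may be technical. The titles fall into 2 naming sets, a 2-library set with 1 anle138b and 1 untreated tumor and a 4-library set that holds 2 anle138b and 2 untreated tumors; their meaning is not in the labels.

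SNAIL (SNAI1) and SLUG (SNAI2) are zinc-finger repressors that bind E-box motifs and recruit histone deacetylases and demethylases to genes such as CDH1, which encodes the adhesion molecule E-cadherin. ZEB1 and ZEB2 bind paired E-boxes through zinc-finger clusters at both ends of the protein and are held down in epithelial cells by microRNAs of the miR-200 family, whereas TWIST1 and TWIST2 are basic helix-loop-helix factors that work as dimers with E proteins. In the melanocyte lineage SLUG and ZEB2 belong to the differentiated program alongside MITF, and a shift from ZEB2 and SLUG to ZEB1 and TWIST1 is the pattern described for dedifferentiated, invasive melanoma cells.

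The miR-200 family and its matches in the ZEB genes are shown because both ZEB genes are described above as held down by that family. The mature microRNAs, from RefSeq (GRCh38.p14), are written 5′ to 3′ with the seed, bases 2 to 8, in capitals; the first 2 share one seed and the next 3 another, and miR-205-5p has its own.
hsa-miR-200a-3p: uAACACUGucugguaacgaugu
hsa-miR-141-3p: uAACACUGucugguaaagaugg
hsa-miR-200b-3p: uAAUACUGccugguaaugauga
hsa-miR-200c-3p: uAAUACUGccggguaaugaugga
hsa-miR-429: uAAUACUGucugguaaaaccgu
hsa-miR-205-5p: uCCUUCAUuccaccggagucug
The 3′ UTR of ZEB1 in GENCODE 29 (2549 bases) held the 7-base match CAGTATT 6 times and CAGTGTT 3 times. That of ZEB2 (5370 bases) held them 5 and 4 times. The first match of each kind in each gene follows, from the GENCODE 29 transcripts (GRCh38), with the match in capitals.
ZEB1 chr10:31527617-31527642, plus strand: cattgttttatcttatCAGTATTatc
ZEB1 chr10:31528030-31528055, plus strand: gcaaaatcatcagaatCAGTGTTtgt
ZEB2 chr2:144389050-144389075, minus strand: ccgcactaccatacatCAGTATTttt
ZEB2 chr2:144389234-144389259, minus strand: atgcaaaaattttgtaCAGTGTTaag
Of 1183 UTRs within 10% of the length of that of ZEB1, 26.3% held CAGTATT at all. Of 541 UTRs close in length to that of ZEB2, 44.9% did. None of either group of UTRs held CAGTATT as often as the ZEB gene. CAGTGTT was present in 30.01% of the UTRs close in length to that of ZEB1 and in 51.4% of those close to that of ZEB2, and 0.423% and 1.29% held it at least as often as the ZEB gene. The SNAI2 3′ UTR held CAGTATT 1 time, and those of SNAI1, TWIST1 and TWIST2 held neither match. The miR-205 match, ATGAAGG, occurred 1 time in ZEB1 and in none of the other 5. MicroRNAs themselves were not measured by these libraries; a match is a description of the sequence and not a functional site.

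RefSeq promoter windows (250 bases before to 50 after a start) were matched for ZEB1 (7 starts), ZEB2 and TWIST2 (1 each); SNAI1, SNAI2 and TWIST1 are named only. The E-box was searched only in the form CAGGTG and its reverse complement CACCTG. It was present in 20.6% of all 35116 windows, in 2 of the 7 ZEB1 windows, and in neither the ZEB2 nor the TWIST2 window. The ZEB1 window with the most matches, 3, lies within the annotated spans of both ZEB1 and its antisense gene ZEB1-AS1, whose reads are described below; it is written in the direction of ZEB1 with the E-boxes in capitals.
ZEB1 chr10:31318966-31319265, plus strand: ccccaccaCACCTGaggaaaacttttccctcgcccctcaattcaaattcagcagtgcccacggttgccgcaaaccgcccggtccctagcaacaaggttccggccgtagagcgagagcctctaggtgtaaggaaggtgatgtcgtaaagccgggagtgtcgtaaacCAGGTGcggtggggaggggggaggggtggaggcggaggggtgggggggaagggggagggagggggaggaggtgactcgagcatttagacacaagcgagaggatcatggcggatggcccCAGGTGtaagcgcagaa

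Depth was 12400782 to 27599159 counts per tumor, with the 2-library set deeper than the rest. Levels are given as CPM, read counts scaled to library size with TMM, a correction for library composition. Levels of different genes are compared per kb of exon unless marked as unscaled for length. The edgeR quasi-likelihood test, with naming set as a term and Benjamini-Hochberg adjustment over the 20423 genes, called 215 genes for treatment at 0.05, which is 1.05% of those tested. It called 3157 genes, 15.5%, between the naming sets, and 0 for a treatment effect that differed between the sets, although 1345 (6.59%) had an unadjusted p below 0.05 and DESeq2 called 31. The 12 melanoma markers summed to 16071 to 19755 CPM in anle138b tumors and 14860 to 19018 CPM in untreated tumors, and none was called for treatment. Their log2 fold changes for treatment ran from -0.46 to 1.42 (median -0.06). Between the naming sets 5 of the 12 were higher in the 2-library set and 0 lower (TYRP1 at 1.73, PRAME at 1.47, CSPG4 at 0.89, S100B at 0.86 and MLANA at 0.47 on the log2 scale; list median 0.20), while the sums were 14860 and 16423 CPM in the 2-library set and 16071 to 19755 CPM in the 4-library set.

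Per kb of all annotated exons, SNAI2 was the most abundant of the 6 factors, followed by ZEB2 and TWIST1, with SNAI1, ZEB1 and TWIST2 far below. SNAI2 averaged 45.5 ± 10.4 CPM per kb in anle138b tumors and 17.0 ± 2.14 in untreated tumors (SD, n = 3 each). ZEB2 averaged 13.7 ± 1.44 and 12.9 ± 0.284 CPM per kb, and TWIST1 9.74 ± 1.05 and 11.02 ± 0.956 CPM per kb, in the same order. In untreated tumors the ZEB2 and TWIST1 ranges were close to one another (12.6 to 13.1 against 10.1 to 12.0 CPM per kb), and SNAI2 (14.6 to 18.5) lay above both.

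The order at the top rests on the length used. ZEB2 has 25058 bases of annotated exon but a longest transcript of 9583 bases, and per kb of the longest transcript ZEB2 was at 33.7 ± 0.743 CPM per kb in untreated tumors, above SNAI2 at 20.4 ± 2.57. In anle138b tumors SNAI2, at 54.6 ± 12.5, stood above ZEB2, at 35.9 ± 3.77, on that scale too. SNAI1 was at 1.49 ± 0.327 CPM per kb in anle138b tumors and 1.92 ± 0.586 in untreated tumors by either length. TWIST2 did not exceed 0.403 CPM per kb in any tumor by either length. The order of SNAI1 and ZEB1 turned with the naming set: by all annotated exons ZEB1 was at 2.11 and 2.08 CPM per kb in the 2-library set, where SNAI1 was at 1.39 and 1.51, and at 0.0685 to 0.150 in the 4-library set, where SNAI1 was at 1.23 to 2.59. In the 4-library set the ZEB1 range overlapped that of TWIST2, 0 to 0.0973 CPM per kb.

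**Figure D1:**
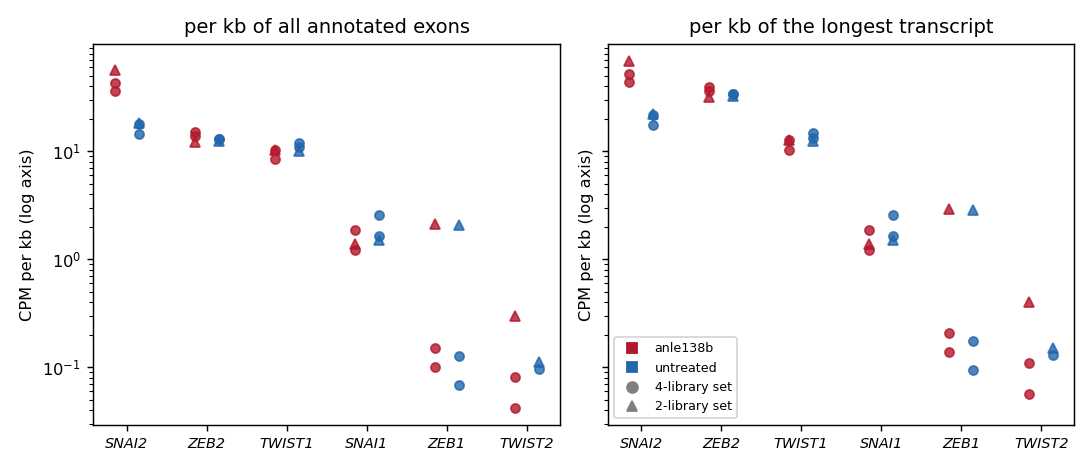
Level of each factor per tumor in CPM per kb on a log axis, by all annotated exons (left) and by the longest transcript (right); red points are anle138b tumors, blue points untreated tumors, triangles the 2-library set and circles the 4-library set. The ZEB1 triangles stand far above its circles, and the anle138b points of SNAI2 stand above the untreated ones; 1 untreated tumor with 0 TWIST2 counts cannot be drawn on this axis.

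Of the 5 factors tested, 1 was called for treatment, against 1.05% of all tested genes, and it was SNAI2. Because the factors were chosen with earlier results of these data known, this share is not a test against all genes. SNAI2, the SLUG repressor needed by migrating neural crest cells and melanoblasts, rose 2.65-fold after anle138b. Its counts were 1615, 1840 and 5452 in anle138b tumors 1 to 3, against 812, 826 and 1478 in untreated tumors 1 to 3. In CPM these were 123.5, 147 and 193 in anle138b tumors and 49.4, 61.2 and 62.7 in untreated tumors. All 3 treated tumors lay above all 3 untreated ones, which held for 4.03% of all tested genes in this direction. The log2 fold change was 1.40 ± 0.13 (SE), with an adjusted p of 0.000868 by edgeR. Among the 134 genes raised (0.656% of those tested), SNAI2 ranked 56th by size, and among all genes 23rd by p.

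The SNAI2 difference was present in both naming sets, at 1.29 on the log2 scale in the 4-library set and 1.62 in the 2-library set. The difference between these effects was not called (edgeR interaction adjusted p = 0.828). Without the naming set term the estimate was 1.42 with an adjusted p of 0.0740, so the call depends on that term. Nothing annotated overlaps SNAI2 (chromosome 8, 48917604 to 48921740, GRCh38, minus strand). Its nearest tested protein-coding neighbours, UBE2V2, MCM4, PCMTD1 and RB1CC1, lay 853 to 3701 kb away. These neighbours were between 0.10 and 0.13 on the same scale and none was called.

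SNAI1, the paralog SNAIL, was low and was not called. It had 3.14, 2.08 and 2.34 CPM in anle138b tumors and 2.80, 4.37 and 2.55 CPM in untreated tumors. The groups overlapped, and the log2 fold change was -0.33 ± 0.26 (edgeR adjusted p = 0.884). With 26 to 66 counts per tumor its counting error was wide. The exact Poisson interval at 95% covers counting error only. It was 2.25 to 4.25, 1.36 to 3.04 and 1.81 to 2.97 CPM in anle138b tumors 1 to 3. In untreated tumors 1 to 3 it was 2.05 to 3.74, 3.33 to 5.64 and 1.94 to 3.28 CPM. The intervals of the lowest tumor, anle138b 2, and the highest, untreated 2, did not overlap. In log2 CPM, unscaled for length, SNAI2 exceeded SNAI1 by 5.25, 6.07 and 6.30 in anle138b tumors and by 4.09, 3.77 and 4.56 in untreated tumors. SNAI2 has 3392 bases of annotated exon and SNAI1 1686.

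**Figure D2:**
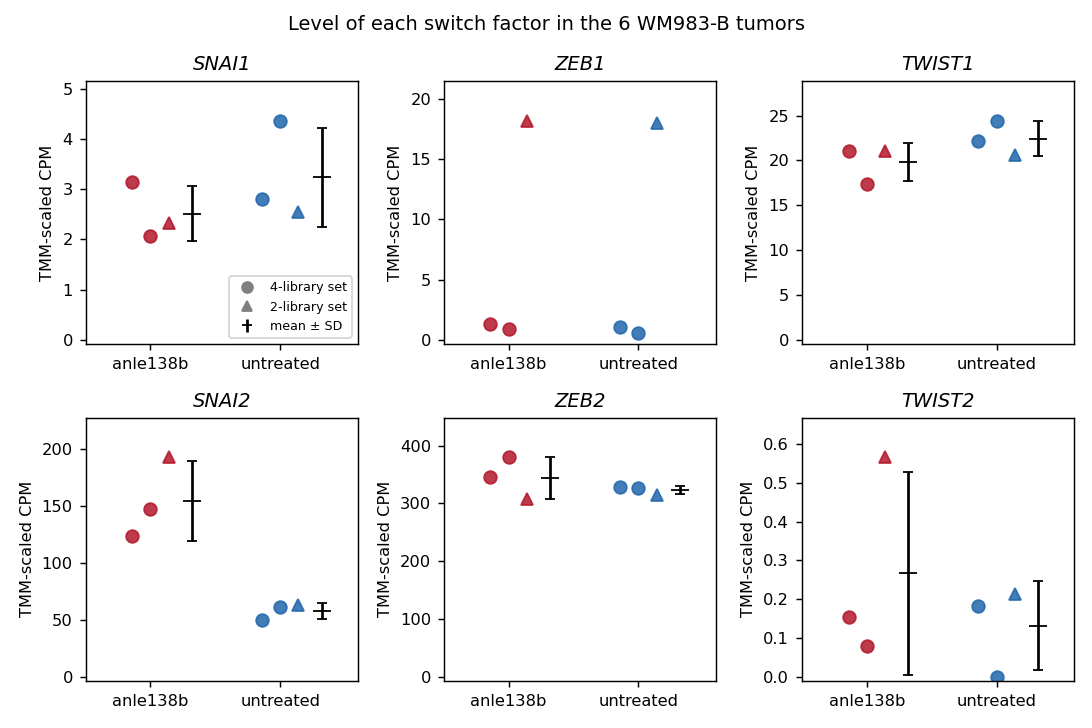
TMM-scaled CPM of each factor in each tumor, anle138b in red and untreated in blue, with triangles for the 2-library set, circles for the 4-library set and black bars for the mean ± SD (n = 3; not drawn for ZEB1, whose tumors fall into separate levels). SNAI2 is higher in all 3 anle138b tumors, and ZEB1 is near 18 CPM in both triangles and near 1 CPM in the 4 circles; each panel has its own linear axis.

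ZEB2 was abundant and steady. It had 345, 380 and 308 CPM in anle138b tumors and 328, 327 and 315 CPM in untreated tumors, and exceeded 98.2% of tested genes in average level, unscaled for length. The groups overlapped, the log2 fold change was 0.09 ± 0.10 (edgeR adjusted p = 0.937), and the coefficient of variation over all 6 tumors was 7.79%. Both tumors of the 2-library set lay below the other 4, as for 19.4% of tested genes, with a difference of -0.14 ± 0.11 on the log2 scale that was not called (adjusted p = 0.379).

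TWIST1, the helix-loop-helix factor tied to the invasive state, was also steady. It had 21.0, 17.3 and 21.1 CPM in anle138b tumors and 22.2, 24.4 and 20.6 CPM in untreated tumors. The groups overlapped, with a log2 fold change of -0.17 ± 0.13 (edgeR adjusted p = 0.873). Between the naming sets it differed by -0.02 ± 0.14 (adjusted p = 0.935), a sign that turns under 4 of the scaling and filter settings (0.03 by upper-quartile scaling, 0.06 by library size alone, 0.00106 with no filter and 0.03 with a filter of 50 counts in 3 libraries).

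TWIST2 sat at the detection limit. It had 2, 1 and 16 counts in anle138b tumors and 3, 0 and 5 counts in untreated tumors. Only anle138b tumor 3, with 16 counts (0.566 CPM), and untreated tumor 3, with 5 counts (0.212 CPM), exceeded 3 counts, the limit that a count of 0 allows, which was 0.106 to 0.240 CPM across the tumors. A difference was not detectable at this depth: with no filter edgeR gave an adjusted p of 0.923 for treatment and 0.0956 for naming set.

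ZEB1, the factor described for dedifferentiated melanoma cells, was near the detection limit in 4 tumors and clearly expressed in 2, and the line between them was the naming set. It had 515 counts in anle138b tumor 3 and 425 in untreated tumor 3, the 2-library set. In the 4-library set it had 17 and 11 counts in anle138b tumors and 18 and 8 in untreated tumors. These correspond to 18.22 and 18.03 CPM in the 2-library set, against 1.30, 0.879, 1.096 and 0.593 CPM in the 4-library set. The 2 tumors of the 2-library set were within counting error of each other (exact Poisson intervals 16.7 to 19.9 and 16.4 to 19.8 CPM).

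The naming sets differed 18.5-fold in ZEB1, at 4.21 ± 0.23 on the log2 scale, with an adjusted p of 7.05e-06 by edgeR. ZEB1 was in this fit the only one of the 5 tested factors called between the sets, where 8.32% of tested genes were higher and 7.14% lower in the 2-library set. It was 20th highest of the 20423 genes, and 24 genes (0.118%) were called and at least 16-fold higher. Both tumors above the other 4 was a pattern of 19.0% of genes. For treatment, ZEB1 was at 0.13 ± 0.24 on the log2 scale (adjusted p = 0.967), at 0.36 within the 4-library set and 0.02 within the 2-library set. SNAI2 was at 0.35 ± 0.13 between the sets (adjusted p = 0.0952); it passed at 0.0469 by upper-quartile scaling, at 0.0353 by library size alone and at 0.0129 with no filter.

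**Figure D3:**
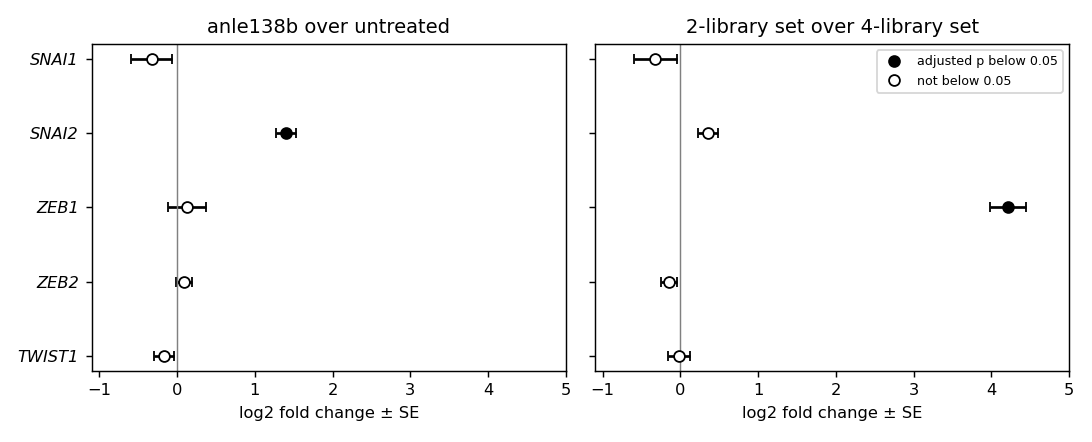
Log2 fold change ± SE of the 5 tested factors for anle138b over untreated (left) and for the 2-library set over the 4-library set (right); filled points have an edgeR adjusted p below 0.05. SNAI2 is the filled point on the left, at 1.40, and ZEB1 the filled point on the right, at 4.21.

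The balance of the ZEB paralogs followed the naming set. Unscaled for length, there were 16.9 ZEB2 reads per ZEB1 read in anle138b tumor 3 and 17.5 in untreated tumor 3. ZEB2 has 25058 bases of annotated exon and ZEB1 8650. In the 4-library set there were 265 and 432 in anle138b tumors and 299 and 551 in untreated tumors. Within the 4-library set the anle138b and untreated tumors overlapped. The share of SNAI2 in the summed level per kb of the 6 factors moved with treatment instead, at 58.2%, 63.4% and 68.3% in anle138b tumors and 36.0%, 39.4% and 41.2% in untreated tumors by all annotated exons. By the longest transcript the shares were 46.2%, 50.2% and 58.0% in anle138b tumors and 26.1%, 29.6% and 30.8% in untreated tumors.

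ZEB1 lies on chromosome 10 at 31318495 to 31529814 (GRCh38, plus strand). Its nearest tested protein-coding neighbours, 276 to 944 kb away, did not share the naming set difference. ZNF438 was at -0.07, MTPAP at 0.10, ARHGAP12 at 0.12 and KIF5B at 0.09 on the log2 scale, and none was called. The antisense gene ZEB1-AS1 had 42 counts in anle138b tumor 3 and 43 in untreated tumor 3. In the 4-library set it had 3 and 1 counts in anle138b tumors and 2 and 5 in untreated tumors. It did not pass the filter, and because the library kit does not mark strand its reads cannot be told apart from those of ZEB1 where both are annotated. An unnamed unprocessed pseudogene inside the ZEB1 span (ENSG00000285781) had 21 and 14 counts in the 2-library set and 0 in each of the other 4 tumors. SPTLC1P1, a pseudogene inside ZEB1, had 3 counts over all tumors. ZEB2-AS1, opposite the start of ZEB2, was at -0.64 ± 0.24 between the sets (adjusted p = 0.0966) and -0.13 ± 0.22 for treatment (adjusted p = 0.963), and the antisense gene over TWIST1 (ENSG00000232821) was at 0.07 between the sets and -0.29 for treatment, neither called. None of the tested neighbours or overlapping genes of the 6 factors was called for treatment.

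**Figure D4:**
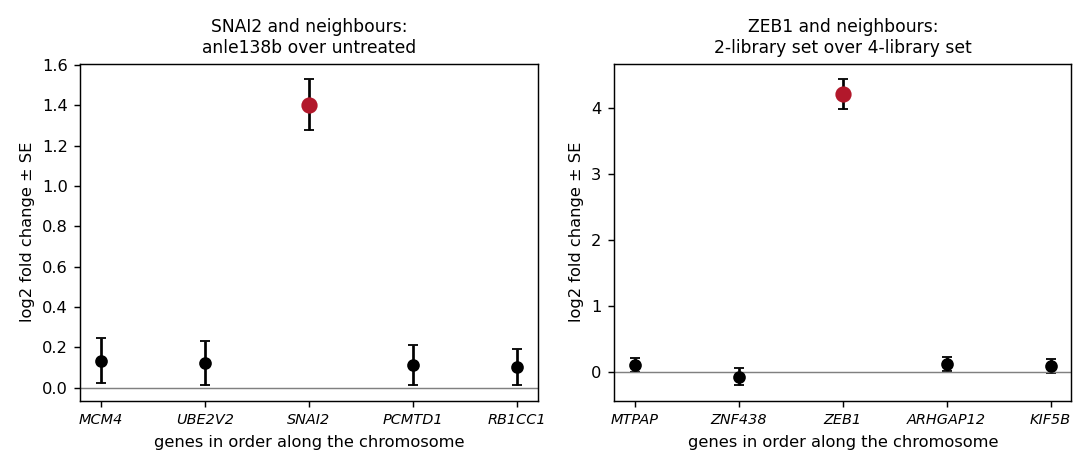
Log2 fold change ± SE of SNAI2 and its nearest tested protein-coding neighbours for anle138b over untreated (left), and of ZEB1 and its neighbours for the 2-library set over the 4-library set (right), in chromosome order. The factor stands at 1.40 and 4.21, and its 4 neighbours lie between 0.10 and 0.13 (left) and between -0.07 and 0.12 (right). The neighbours are 853 to 3701 kb from SNAI2 and 276 to 944 kb from ZEB1.

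Markers of host and stromal cell types were read from lists, which were chosen with earlier results of these data known. Reads were counted on human genes (hg38), so expression by tumor cells and host reads that match human genes cannot be told apart here. In bulk tumors a change in the number of cells of a type and a change in RNA per cell cannot be told apart either. Fibroblasts also express SNAI2, ZEB1 and TWIST factors. Of 15 fibroblast markers, 5 were higher in the 2-library set and 0 lower, against 8.32% and 7.14% of all tested genes. The 5 were COL1A1, COL1A2, COL3A1, COL6A3 and FBLN1, at 0.69 to 1.41 on the log2 scale. The 15 markers summed to 622 and 898 CPM in the 2-library set, against 458 to 568 CPM in the 4-library set. For treatment 1 of the 15 rose, LUM, the matrix proteoglycan lumican, by 0.70 ± 0.12 (adjusted p = 0.0249); it missed the threshold with the 4-library set by itself (0.117), with replicate 1 or 3 of either group left out (0.0807 to 0.174) and without the set term (0.308). The fibroblast sums overlapped at 494 to 898 CPM in anle138b tumors and 458 to 622 CPM in untreated tumors. No endothelial (8 of 10 tested), myeloid (7 of 13), muscle (6 of 12, with MYL1 at 0) or keratinocyte (3 of 10, with LGALS7 at 0) marker was called for treatment. Between the sets, 3 of the 6 tested muscle markers were lower in the 2-library set (MYH1, MYH2 and MYH4, at -1.49 to -1.29; list median -0.75), and KDR (2.20), ITGAM (1.09) and TP63 (1.39) were higher and TIE1 (-0.73) lower among the endothelial, myeloid and keratinocyte markers. The muscle markers summed to 287 and 310 CPM in the 2-library set and 256 to 442 CPM in the 4-library set. In the 2-library set the endothelial sums were 40.4 and 40.8 CPM, the myeloid sums 45.7 and 55.4 CPM and the keratinocyte sums 94.0 and 106 CPM. In the 4-library set they were 38.4 to 48.8, 27.9 to 50.6 and 74.5 to 93.1 CPM, so the keratinocyte sums alone did not overlap among these 4 lists. How reads of host origin were handled is not given in the sources used here, and the part of stromal RNA in the SNAI2 and ZEB1 values was not tested.

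Genes of the surrounding network were read from lists, each described by its counts and median. Of 222 list genes tested, the cell type markers above included, 6 were called for treatment, against 1.05% of all tested genes. Because the lists were chosen with earlier results of these data known, this share is not a test against all genes. The fibroblast marker LUM is among the 6. Without the naming set term 0 of the list genes were called. The median of all tested genes was -0.01 for treatment and -0.02 between the sets. Of the other EMT-type factors 12 of 21 were tested, and 0 were called for treatment (median 0.05). TCF4, an E protein that pairs with TWIST factors, was at 0.29 ± 0.10 (adjusted p = 0.387). Between the sets PRRX1, a homeobox factor of mesenchyme, was higher by 1.61 ± 0.23 (adjusted p = 0.00208), at 6.62 and 7.04 CPM in the 2-library set and 1.38 to 2.89 CPM in the 4-library set. RUNX2 was lower by 0.65. SNAI3, the third SNAIL paralog, had 5 to 7 counts in every tumor. Among TWIST partners and their ID-protein inhibitors (7 of 9 tested) 0 were called for treatment, and ID3 was higher in the 2-library set by 2.26 ± 0.29 (adjusted p = 0.00104).

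No gene of the machinery through which these factors act was called for treatment. All 21 corepressor genes were tested and 0 were called (median 0.01). AJUBA, an adaptor that links SNAIL to its corepressors, was at 0.59 ± 0.18 (adjusted p = 0.241), and KDM1A, the demethylase LSD1, at -0.28 ± 0.12 (adjusted p = 0.522). All 21 genes of factor turnover (kinases, ubiquitin ligases and deubiquitinases) were tested and 0 were called (median 0.02); USP10, a deubiquitinase reported for SLUG, was at 0.29 ± 0.09 (adjusted p = 0.256). Between the sets HDAC1 was lower by 0.37, and MDM2, FBXL5 and ATM were higher and FBXO31 lower, by 0.40 to 0.51 in size.

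Of the upstream signals 35 of 36 were tested, and 2 rose after anle138b with 0 lower (median 0.06). SMAD3, which carries the TGF-β signal to the nucleus, had 67.0, 81.0 and 93.3 CPM in anle138b tumors and 40.0, 45.3 and 43.1 CPM in untreated tumors. The groups did not overlap, and the log2 fold change was 0.91 ± 0.12 (adjusted p = 0.00717). WWTR1, the Hippo pathway coactivator TAZ, had 98.1, 115 and 193 CPM in anle138b tumors and 67.0, 79.0 and 120 CPM in untreated tumors. The treated tumor was the higher one within the 2-library set and both treated tumors were higher within the 4-library set, although the groups overlapped when the sets were pooled; the log2 fold change was 0.59 ± 0.11 (adjusted p = 0.0369), and the call was lost when the 4-library set stood by itself (0.182) and when replicate 1 or 3 of either group was left out (0.0827 to 0.222). WWTR1 was also higher in the 2-library set by 0.79 ± 0.11 (adjusted p = 0.00187), as were BMP7 (1.93), BMP2 (1.47), TGFB3 (0.80) and STAT3 (0.57), while FOSL1 (-1.40), FOSL2 (-0.64) and RELA (-0.62) were lower.

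Epithelial genes are the classical repressed targets, and 15 of 30 were tested. Of these 1 fell after anle138b and 0 rose (median -0.16). CDH1 had 63.0, 59.3 and 53.8 CPM in anle138b tumors and 94.9, 114 and 205 CPM in untreated tumors. The groups did not overlap, a pattern of 4.47% of tested genes in this direction, and the log2 fold change was -1.16 ± 0.21 (adjusted p = 0.0355), with the wider gap in the 2-library set (-1.92, against -0.76 in the 4-library set). The CDH1 call was lost without untreated replicate 2 (adjusted p = 0.0672). CLDN4, a tight junction claudin, was at -1.25 ± 0.36 (adjusted p = 0.216) and TJP1 at -0.27 ± 0.09 (adjusted p = 0.312). Between the sets epithelial genes went in both directions while ZEB1 was higher: CLDN1 (2.00), DSG2 (1.17) and TJP1 (0.43) were higher and KRT8 (-1.70), LLGL2 (-0.99), CDH3 (-0.69) and KRT18 (-0.66) lower.

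Of the epithelial gatekeepers, which oppose ZEB factors, 6 of 12 were tested and 0 were called in either comparison. ESRP1, the epithelial splicing regulator, had 29.3, 25.7 and 32.6 CPM in anle138b tumors and 24.8, 25.3 and 31.6 CPM in untreated tumors. MIR200CHG, the host gene of miR-200c and miR-141 whose sequences are given above, had 0 counts in every anle138b tumor and 1, 1 and 0 in untreated tumors. OVOL2, a repressor of ZEB1, had at most 1 count in any tumor. MIR205HG had 1, 2 and 3 counts in anle138b tumors and 1, 0 and 1 in untreated tumors. These transcripts were at or below the limit of 3 counts in both naming sets.

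All 24 mesenchymal genes were tested. After anle138b 1 rose and 0 fell, with log2 fold changes from -0.26 to 1.62 (median 0.02). FN1, the matrix protein fibronectin, had 10263, 11665 and 7991 CPM in anle138b tumors and 3315, 3464 and 2867 CPM in untreated tumors, without overlap, at 1.62 ± 0.15 on the log2 scale (adjusted p = 0.00100). MMP2, CDH2 (N-cadherin) and S100A4 were higher in every anle138b tumor than in any untreated tumor, a pattern of 4.03% of all tested genes. They were at 0.82 ± 0.18, 0.46 ± 0.13 and 0.67 ± 0.19, and missed the threshold (edgeR adjusted p = 0.0815, 0.197 and 0.204). How many of the 24 genes lacked overlap, in either direction, is not given here. Between the sets SPARC, COL1A1, COL1A2, COL3A1 and CDH11 were higher by 0.48 to 1.05.

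Among other genes reported downstream of these factors 11 of 14 were tested; 1 fell after anle138b and 0 rose (median -0.09). CXCR4, a chemokine receptor of migrating melanoma cells, had 6.65, 5.27 and 3.86 CPM in anle138b tumors and 11.5, 17.3 and 15.6 CPM in untreated tumors. The groups did not overlap, and the log2 fold change was -1.53 ± 0.23 (adjusted p = 0.0129), and it missed the threshold with the 4-library set by itself (0.0681) or with anle138b replicate 3 (0.0741) or untreated replicate 3 (0.0586) left out. VDR, the vitamin D receptor that SNAIL and SLUG repress in carcinoma cells, was at 0.67 ± 0.14 (adjusted p = 0.0619), with 33.7 to 40.4 CPM in anle138b tumors and 18.9 to 25.8 CPM in untreated tumors.

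No gene of the melanocyte or invasive lists, which stand for the sides of the phenotype switch, was called for treatment. Of 20 melanocyte and neural crest genes 16 were tested, with 0 called and a median of -0.08; MITF was at -0.02 and SOX10 at 0.03. Of 18 genes of the invasive state 16 were tested, with 0 called and a median of 0.04; SOX2 was at -0.66 ± 0.14 (adjusted p = 0.0703) and EGFR at 0.70 ± 0.21 (adjusted p = 0.244). Between the sets 8.32% of all tested genes were higher and 7.14% lower in the 2-library set. Of the 16 invasive genes, 5 were higher (EGFR at 2.39, FGF2, THBS1, CCN2 and AXL) and PDGFC was lower. In the melanocyte list KIT, the receptor of melanoblasts, was higher by 2.98 ± 0.21 (adjusted p = 3e-05), at 26.2 and 22.1 CPM in the 2-library set and 2.16 to 3.78 CPM in the 4-library set; ERBB3 and SOX5 were also higher and TFAP2A and KITLG lower.

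**Figure D5:**
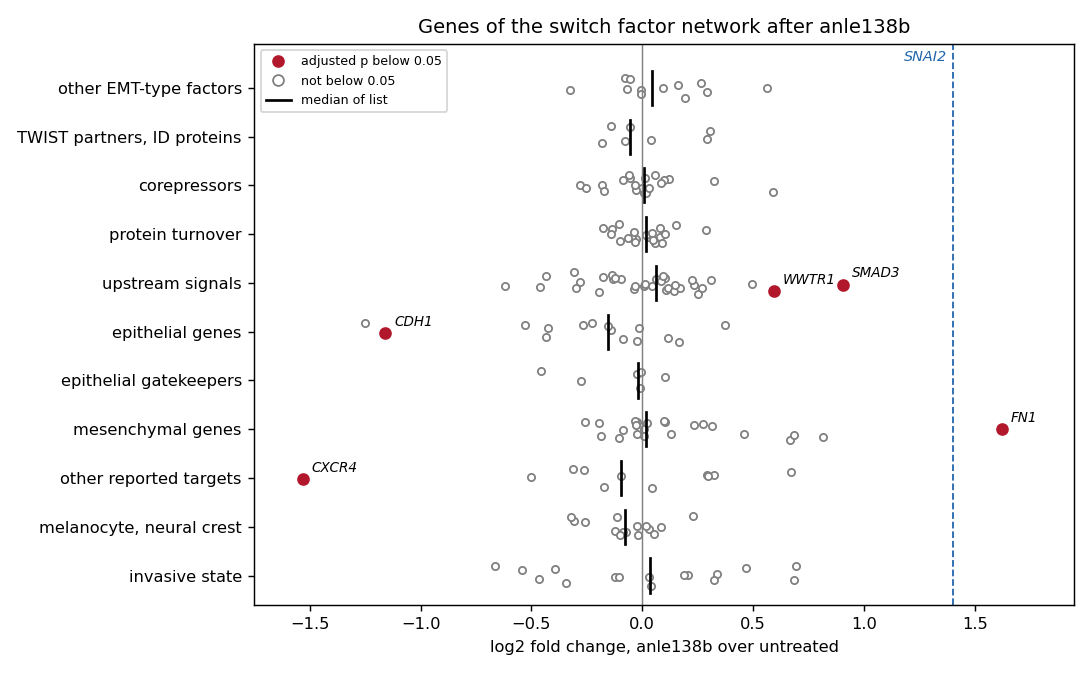
Log2 fold change for anle138b over untreated of the tested genes in 11 lists around the factors, 1 point per gene, with the list median as a black bar and genes with an edgeR adjusted p below 0.05 filled and named. Called genes are SMAD3, WWTR1 and FN1 to the right and CDH1 and CXCR4 to the left; the dashed line marks SNAI2 at 1.40.

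The genes most like each factor across the 6 tumors were found by the root mean square (RMS) difference of mean-centred log2 CPM among 14232 genes with an average log2 CPM of at least 1; the 6 tumors share 2 naming sets and 2 treatments, and the measure carries no test. The nearest to SNAI2 were SYNM (RMS 0.161), TCAF2, C10orf90, GPAT3 and FRMD5. SYNM, the intermediate filament protein synemin, was 1.23 higher in anle138b tumors on the log2 scale. The nearest to ZEB1 were CPE (RMS 0.265), MARCHF8, MAGEA1, ZNF521 and HMGA2. These ranged from 3.56 (HMGA2, a chromatin architecture protein) to 4.73 (MAGEA1, a cancer-testis antigen) between the sets on the log2 scale. The nearest to ZEB2 were SMG1 (RMS 0.0194), CSNK1G1, SDHAP4, PARP4 and CHD7, and to TWIST1 MAGEF1 (RMS 0.0289), CC2D1A, RWDD2B, NDUFAF8 and GM2A. The nearest to SNAI1 were RUNDC3A (RMS 0.0580), NDUFA3, PRR12, SHROOM1 and PPP1R37.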

How the data were processed

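Each tumor has a deposited file of raw read counts by gene. Per the labels, RNA came from Trizol extraction and libraries from the TruSeq RNA kit v2, an unstranded protocol. The submitters' processing notes name bcl2fastq 2.17.1.14, STAR 2.5.2a, featureCounts 1.5.0-p1 and hg38; the annotation, strand and multimapping settings and the handling of mouse reads are not given in the sources used here. Positions came from GENCODE 29, which held 58542 identifiers.

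Counts were fitted with edgeR 4.0.16 (R 4.3.3): filterByExpr (minimum count 10, total 15), TMM, and the quasi-likelihood F test with treatment and naming set, 3 residual degrees of freedom, Benjamini-Hochberg at 0.05. CPM are TMM-scaled; log2 CPM used a prior count of 2. Replicates differed beyond sampling noise (chi-square per degree of freedom 10.5 to 58.8). The fit was tested on simulated data. Groups came from the treatment label, and replicate numbers, given in listing order, pair no tumors. Alternatives used DESeq2 1.42.0, limma 3.58.1, other scalings and filters, and left-out libraries. The 6 members and the lists were chosen with earlier results of these data known. Named genes were the members, list genes called for treatment or between the sets, up to 4 of each list with the smallest p, neighbours, overlapping genes and the 5 genes most like each member; not every one is printed, and OVOL2, MIR200CHG, MIR205HG, SNAI3, MITF and SOX10 were named for their role.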

Additional observations from a re-analysis of the deposited data

How the results depend on the processing

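The SNAI2 rise kept its call in 15 of 16 alternatives (1.29 to 1.53 on the log2 scale); without the naming set term it was 1.42 (adjusted p = 0.0740), and 0 factors and 0 list genes were called, with 9 genes in all against 215. The other 4 factors were called for treatment in none. Counts of all genes called for treatment were 754 with no low-count filter, 412 by DESeq2, 92 in the 4-library set alone and 89 to 392 with 1 library left out (89 without anle138b replicate 3, 392 without anle138b replicate 2). List genes called for treatment, 6 in the edgeR fit, were 25 with no filter, 13 by DESeq2 and 4 to 15 with 1 library left out. Without the naming set term CDH1, FN1, CXCR4, SMAD3, WWTR1 and LUM missed the threshold; LUM also missed it in the 4-library set alone and with replicate 1 or 3 of either group left out (0.0807 to 0.174).

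The ZEB1 difference between the sets was 4.03 to 4.37 in all 13 alternatives that tested it; with a filter of 50 counts in 3 libraries ZEB1 was not tested, which left 0 factors called. SNAI2 also passed between the sets by upper-quartile scaling (0.40), library size alone (0.43), no filter (0.38) and without untreated replicate 2 (leave-one-out range 0.18 to 0.53), giving 2 factors called (1 to 2 with 1 library left out). TWIST1 changed sign under upper-quartile scaling (0.033), library size alone (0.057), no filter (0.00106) and the strict filter (0.029), and ran from -0.18 to 0.15 with 1 library left out. All genes called between the sets numbered 6250 with no filter and 993 to 5960 with 1 library left out (993 without untreated replicate 3). List genes called between the sets, 55, numbered 103 with no filter and 31 to 83 with 1 library left out. DESeq2 called 31 genes for the interaction, against 0. Per kb of the longest transcript ZEB2 was 34.8 and TWIST1 12.7 CPM per kb. The cause of these changes was not tested beyond what each setting changes by construction. No paired analysis was possible because the titles give no replicate numbers shared between groups. Low counts limit SNAI1, ZEB1 in the 4-library set and TWIST2.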
